A study of Mus musculus with 9 samples.

Results

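The mural cells of brain vessels, which are the pericytes of capillaries and the smooth muscle cells of arteries and arterioles, were described by 10 genes: Pdgfrb, Rgs5, Acta2, Tagln, Myh11, Cspg4, Kcnj8, Abcc9, Vtn, and Notch3. The genes were chosen by name as known genes of these cells, with earlier results of these data known. All 10 were found among the 38621 genes measured and passed the filter on low values. Brain RNA was sequenced from 9 male C57BL/6 mice, with 3 mice in each group. The sham group received a saline injection into the brain according to the study's methods and is called untreated in the sample labels. The ICH group was injected with 30 μl of the animal's own blood. The feb group received the same blood injection after 5 daily oral doses of febuxostat, an inhibitor of xanthine oxidase, at 50 mg/kg. The age of the mice, the brain region taken, and the time between injection and sampling were not given in the sources used here for these samples. No group received febuxostat without blood, so the effect of the drug alone cannot be told apart from its effect in the presence of a hemorrhage.

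Mural cells wrap the endothelial tube of brain vessels and depend on signals from it. Endothelial cells release PDGF-B, which recruits and keeps pericytes through the receptor encoded by Pdgfrb, and their Jagged and Delta ligands act on the Notch3 receptor of mural cells. Smooth muscle cells carry an actin and myosin apparatus that sets the diameter of arterioles, whereas capillary pericytes contain little of it and are known for their part in keeping the blood-brain barrier closed. In a bulk sample, fewer mural cells and less RNA per mural cell cannot be told apart.

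The values are RPKM, read numbers divided by the exonic length of the gene and by the library total, so levels of different genes are compared per length throughout. Between 23065757 and 29538009 reads were counted per mouse, and the member genes had from 57 reads (Kcnj8, lowest mouse) to 3999 reads (Myh11, highest mouse). Of the tissue label's markers, all 10 examined (neuronal, astrocytic, oligodendroglial, and microglial) had an RPKM of at least 4.26 in every mouse, with a summed RPKM between 827 and 1366. The per-mouse values of a gene are given in replicate order with the group in parentheses. Differences were tested with limma on log2(RPKM + 0.1) over 29025 genes. A gene was called when its unadjusted p-value was under 0.05 and its fold change over 2, and p-values adjusted by Benjamini-Hochberg over all genes tested are given beside.

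Rgs5 and Vtn had the lowest p-values of the members in both contrasts with the feb group. Rgs5, a regulator of G protein signaling that marks brain pericytes, had an RPKM of 23.3, 22.1, and 21.7 (sham), 20.2, 21.5, and 22.8 (ICH), and 13.5, 19.9, and 12.2 (feb). All 3 feb mice were below all sham and all ICH mice, and feb replicate 2 lay just under the lowest ICH mouse. The means were 22.3 ± 0.817 (sham), 21.5 ± 1.33 (ICH), and 15.2 ± 4.10 (feb), each with its SD over n = 3 mice. Between the feb and ICH groups the log2 fold change of -0.53 (standard error 0.16) had a limma p of 0.0103 (adjusted p = 0.324), and between the feb and sham groups that of -0.58 (standard error 0.16) had a limma p of 0.00597 (adjusted p = 0.565). Between the ICH and sham groups it was -0.06 (95% confidence interval -0.42 to 0.31). None of these differences reached a fold change of 2 or an adjusted p under 0.05.

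Vtn encodes vitronectin, an extracellular matrix protein that brain pericytes release and that binds integrins of the endothelium. Its RPKM was 18.2, 13.1, and 17.6 (sham), 17.9, 15.5, and 14.7 (ICH), and 10.4, 13.3, and 9.59 (feb). The highest feb mouse stayed under the lowest ICH mouse, while feb replicate 2 exceeded sham replicate 2. Its log2 fold change of -0.54 between feb and ICH (standard error 0.16) had a limma p of 0.00989 (adjusted p = 0.324). That of -0.55 between feb and sham (standard error 0.16) had a limma p of 0.00867 (adjusted p = 0.565), and the value was -0.01 between ICH and sham (95% confidence interval -0.38 to 0.36). Two-sided exact permutation tests of a single gene with 3 mice against 3 cannot go below 0.1, the value reached by Rgs5 in both contrasts with feb and by Vtn between feb and ICH.

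**Figure D1:**
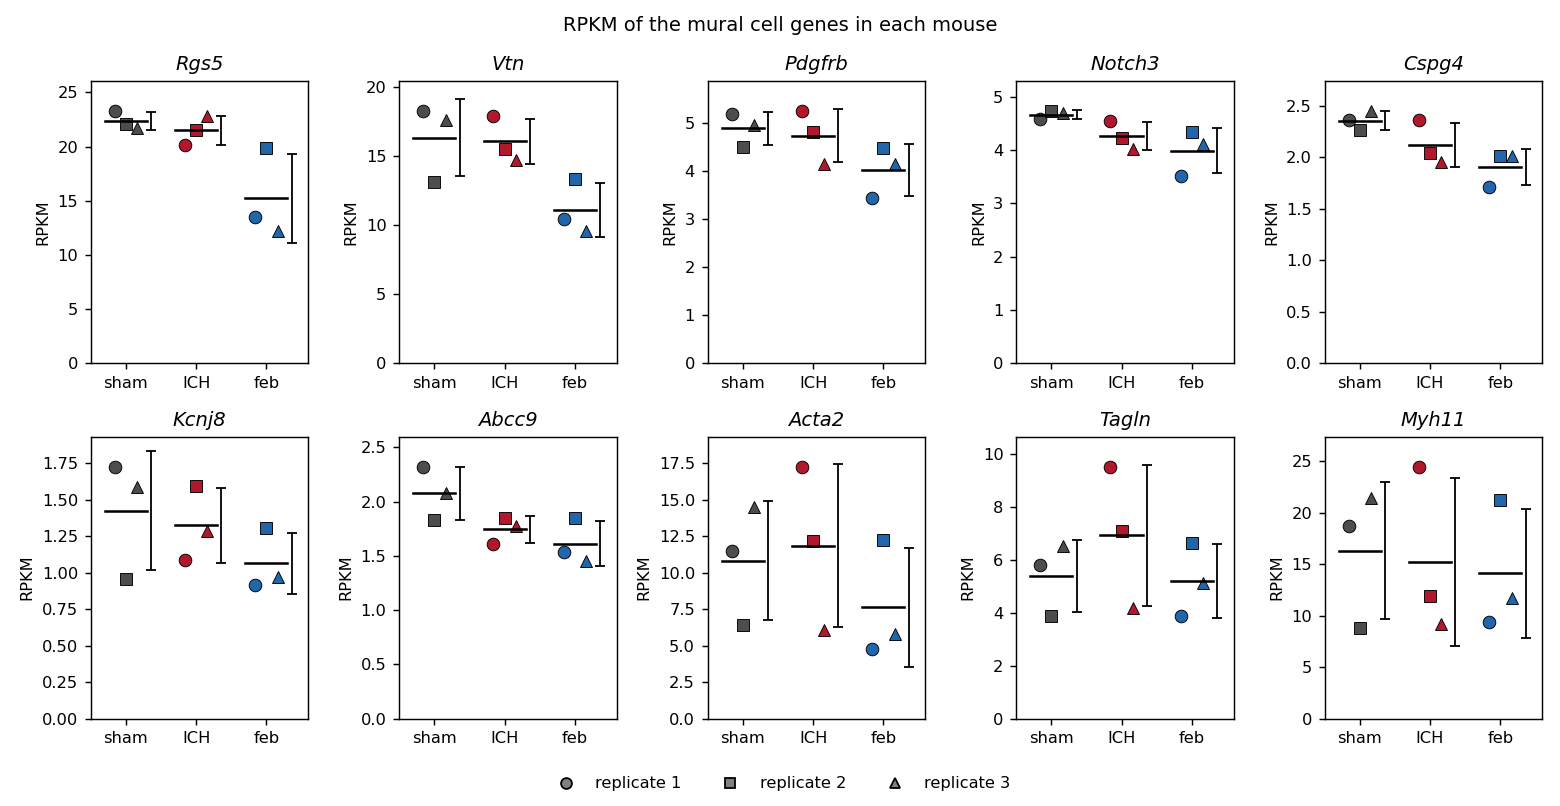
RPKM of the 10 mural cell genes (vertical axis, from 0) in each of the 9 mice by group, with symbols for the replicate number, a line for the group mean, and a bar for the SD (n = 3). The feb mice lie lowest in Rgs5, whereas Acta2, Tagln, and Myh11 spread widely within every group.

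The promoter windows of both genes are shown because these 2 genes had the lowest p-values of the members. Each window holds 250 bases before and 50 after the start site in RefSeq (GRCm38.p6, the build of the deposited positions). A window was found for 7 of the 10 members, while Pdgfrb, Tagln, and Myh11 had no entry. The capitals mark TGGGAA or its reverse complement TTCCCA, the core bound by the Notch effector RBPJ, searched on both strands. These letters occur in 25.6% of the 32817 windows of this length. The Vtn window holds 3 matches and the Rgs5 window none.
Rgs5, chr1:169655251-169655550, plus strand: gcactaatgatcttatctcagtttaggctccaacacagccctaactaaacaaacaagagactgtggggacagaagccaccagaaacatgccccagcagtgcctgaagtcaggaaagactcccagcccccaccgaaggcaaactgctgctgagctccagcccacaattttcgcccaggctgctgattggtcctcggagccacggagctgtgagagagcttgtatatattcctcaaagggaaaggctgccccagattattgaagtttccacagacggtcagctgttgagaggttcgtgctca
Vtn, chr11:78498870-78499169, plus strand: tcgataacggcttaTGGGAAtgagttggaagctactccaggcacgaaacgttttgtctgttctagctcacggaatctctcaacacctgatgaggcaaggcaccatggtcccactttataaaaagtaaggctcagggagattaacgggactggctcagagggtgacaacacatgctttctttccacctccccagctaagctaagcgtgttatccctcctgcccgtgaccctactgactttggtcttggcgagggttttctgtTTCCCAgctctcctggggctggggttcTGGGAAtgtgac
A match describes letters only and does not show that RBPJ binds there.

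Pdgfrb (chromosome 18, 61045150 to 61085061 in GRCm38) encodes the receptor for PDGF-B. Its RPKM was 5.19, 4.50, and 4.96 (sham), 5.24, 4.82, and 4.14 (ICH), and 3.43, 4.48, and 4.14 (feb). The feb mice were below all sham mice by a small margin and overlapped the ICH mice. The log2 fold change was -0.28 between feb and sham (95% confidence interval -0.59 to 0.02, adjusted p = 0.613) and -0.23 between feb and ICH (-0.54 to 0.07, adjusted p = 0.538). Notch3 (chromosome 17, 32120820 to 32166880), the mural Notch receptor whose mutation in humans causes the small vessel disease CADASIL, had the smallest spread within groups. It was 4.57, 4.73, and 4.69 (sham), 4.54, 4.23, and 4.01 (ICH), and 3.51, 4.33, and 4.12 (feb). Both groups injected with blood were entirely below the sham mice, and the log2 fold change was -0.13 for ICH against sham (95% confidence interval -0.37 to 0.11) and -0.23 for feb against sham (-0.46 to 0.01, adjusted p = 0.606). Its exons share 488 bases (6.07%) with Gm17276 on the other strand, which had a mean RPKM of 1.63.

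Cspg4 (chromosome 9, 56865033 to 56899870) encodes the proteoglycan NG2, which pericytes share with oligodendrocyte precursors, so both can contribute to its level in brain. It had an RPKM of 2.36, 2.26, and 2.45 (sham), 2.36, 2.04, and 1.95 (ICH), and 1.71, 2.01, and 2.01 (feb). The feb mice did not overlap the sham mice, and the log2 fold change of -0.29 (standard error 0.13) had a limma p of 0.0473 (adjusted p = 0.583). A list of 8 markers of oligodendrocyte precursors had a median log2 fold change of -0.27 between feb and sham. All but 1 of the 8 lay below 0. At an unadjusted p under 0.05, 1 of 8 (Olig1, -0.50) passed, beside 8.54% of all genes, and Sox10 (-0.52) did not. Between ICH and sham 2 of 8 passed, Olig1 (-0.43) and Lhfpl3 (-0.47), beside 12.3% of all genes. The summed RPKM of the 8 was 78.8 to 91.0 in the sham mice, 61.4 to 84.6 in the ICH mice, and 57.1 to 81.5 in the feb mice. Pdgfra, a further precursor marker listed with the PDGF genes, was not lower in mean in the feb than in the sham group. Its mean RPKM was 7.63 (sham), 8.47 (ICH), and 7.96 (feb). The part of these precursors in the Cspg4 difference was not tested.

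Kcnj8 and Abcc9 encode the pore (Kir6.1) and the sulfonylurea receptor subunit (SUR2) of the vascular ATP-sensitive potassium channel. They are neighbors on the minus strand of chromosome 6, at 142564837 to 142571614 and 142587862 to 142702315 in GRCm38. Kcnj8 was 1.73, 0.961, and 1.59 (sham), 1.09, 1.60, and 1.29 (ICH), and 0.919, 1.31, and 0.970 (feb). The groups overlapped in all contrasts of Kcnj8, with log2 fold changes of -0.08, -0.29, and -0.37 for ICH against sham, feb against ICH, and feb against sham. Abcc9 was 2.32, 1.83, and 2.08 (sham), 1.61, 1.85, and 1.77 (ICH), and 1.54, 1.85, and 1.45 (feb). Between feb and sham its log2 fold change of -0.35 (standard error 0.15) had a limma p of 0.0427 (adjusted p = 0.583), although feb replicate 2 was above sham replicate 2. The per-mouse log2 values of both channel genes had a Pearson correlation of 0.84 over the 9 mice, given as a description.

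The 3 contractile genes had the largest spread between mice of the same group among the members. Acta2 (chromosome 19, 34241090 to 34255336 in GRCm38) encodes the alpha-actin of vascular smooth muscle. It had an RPKM of 11.5, 6.44, and 14.5 (sham), 17.2, 12.2, and 6.09 (ICH), and 4.77, 12.3, and 5.82 (feb). Every group thus held at least 1 mouse below 7 and 1 above 12 (sham replicates 2 and 3, ICH replicates 3 and 1, and feb replicates 1 and 2). Myh11 (chromosome 16, 14194527 to 14291408), the smooth muscle myosin heavy chain, was 18.7, 8.82, and 21.5 (sham), 24.5, 11.9, and 9.22 (ICH), and 9.38, 21.3, and 11.7 (feb). Tagln (chromosome 9, 45929619 to 45936058), which encodes the actin-binding protein SM22, was 5.81, 3.89, and 6.53 (sham), 9.53, 7.10, and 4.21 (ICH), and 3.88, 6.66, and 5.12 (feb). ICH replicate 1 was the highest of all 9 mice in each of the 3 genes, feb replicate 2 ranked number 3 in each, and sham replicate 2 and ICH replicate 3 were low in all of them.

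Between the highest and the lowest mouse, Acta2 differed 3.61-fold, Myh11 2.77-fold, and Tagln 2.46-fold, against 1.35-fold in Notch3 and 1.90-fold in Rgs5. The SD within groups on the log2 scale was 0.69 in Acta2 and 0.67 in Myh11, larger than in 94.8% and 94.4% of the 17661 tested genes with a mean RPKM of at least 1. In Notch3 it was 0.10, larger than in 16.7% of them. With this spread the contrasts of the contractile genes had wide intervals. For Acta2 the log2 fold change was 0.08 between ICH and sham (95% confidence interval -1.0005 to 1.17), -0.63 between feb and ICH (-1.71 to 0.45), and -0.55 between feb and sham (-1.63 to 0.54). With 1 mouse left out, the estimates with feb ran from -1.04 to -0.30 against ICH and from -0.95 to -0.28 against sham. The corresponding values were -0.13, -0.07, and -0.20 for Myh11 and 0.31, -0.36, and -0.05 for Tagln, with limma p-values between 0.220 and 0.885 (adjusted p between 0.640 and 0.974) over the 9 contrasts of the 3 genes. The interval took in a 2-fold difference in at least 1 direction in each of these contrasts except that of Tagln between feb and sham (-0.79 to 0.69).

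Tagln values carry a further limit, because 62.4% of its exon bases (1241) also belong to RP23-228B2.5 on the other strand and 108 to Pcsk7. RP23-228B2.5 had an RPKM of 4.62, 3.002, and 5.204 (sham), 7.41, 5.59, and 3.24 (ICH), and 3.11, 5.31, and 4.07 (feb), and the Pearson correlation of its log2 values with those of Tagln was 0.999 over the 9 mice. The library kit marks strand, but the counting step is described without a strand setting, so reads of the 2 genes cannot be told apart with certainty.

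The promoter window of Acta2 is shown because the contractile genes correlated across the mice. Genes of this program are known to be driven by serum response factor and myocardin through the CArG box, an element with a core of A and T between paired C and G. The exact CArG box was found in 1.63% of the 32817 windows and in none of the members with a window. Elements with 1 C or G within the core, a search added after the exact one had found none, were present in 8.5% of windows, and the Acta2 window (chr19:34255324-34255623, minus strand) holds 2, both in capitals, the second running into a TGGGAA match.
Acta2: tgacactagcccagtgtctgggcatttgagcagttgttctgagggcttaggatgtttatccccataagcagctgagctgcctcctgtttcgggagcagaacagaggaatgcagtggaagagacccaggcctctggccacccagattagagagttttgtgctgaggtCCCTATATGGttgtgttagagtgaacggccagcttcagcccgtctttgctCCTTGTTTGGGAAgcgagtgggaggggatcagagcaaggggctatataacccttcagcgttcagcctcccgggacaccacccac
No other member with a window held such an element, which says only that these letters are not in those bases.

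**Figure D2:**
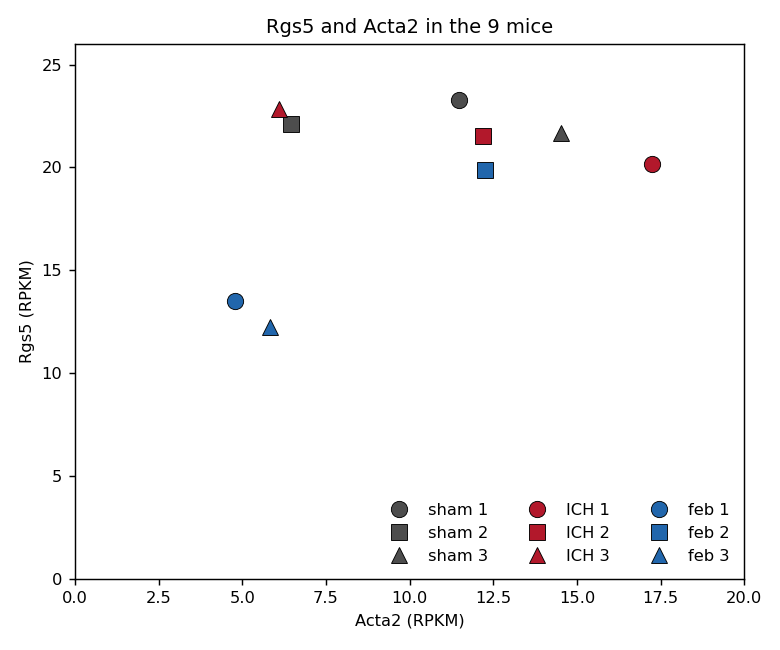
RPKM of Rgs5 (vertical axis) against Acta2 (horizontal axis), both from 0, in the 9 mice, with 1 point per mouse, colors for groups, and symbols for replicate numbers. Acta2 runs from 6.09 to 17.2 among the sham and ICH mice while Rgs5 stays between 20.2 and 23.3, and feb replicates 1 and 3 sit apart at an Rgs5 of 13.5 and 12.2.

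The division between contractile genes and other members was only partial in pairwise Pearson correlations of log2 values over the 9 mice. They were 0.85 to 0.92 for the 3 pairs of contractile genes, had a median of 0.68 (0.41 to 0.94) for the 21 pairs of other members, and a median of 0.55 (0.16 to 0.87) for the 21 mixed pairs. All pairs share the same 9 libraries. Pdgfrb was nearer to Acta2 (0.87) than to Rgs5 (0.68), and Vtn had 0.81 with Acta2 and 0.85 with Rgs5. Rgs5 and Acta2 had a Pearson correlation of 0.55 and a Spearman correlation of 0.18.

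In order of mean level in the sham group, Rgs5 (22.3) came first, followed by Myh11 (16.3), Vtn (16.3), Acta2 (10.8), Tagln (5.41), Pdgfrb (4.88), Notch3 (4.66), Cspg4 (2.35), Abcc9 (2.08), and Kcnj8 (1.43), all in RPKM. In that group the ranges over the mice did not overlap between Rgs5 and Myh11, Notch3 and Cspg4, and Abcc9 and Kcnj8. The ranges of all other neighbors in the order overlapped. Compared within each sham mouse, Vtn was also above Acta2, Acta2 above Tagln, and Cspg4 above Abcc9. The ICH group kept this order apart from Vtn and Myh11, which changed places. In the feb group the order was that of sham, but Rgs5 (15.2) no longer stood clear of Myh11 (14.1).

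Over the 10 members as a list, no gene was called in any of the 3 contrasts, against 2.53% of all genes tested between ICH and sham, 2.43% between feb and ICH, and 2.2% between feb and sham. None had an adjusted p under 0.05 in limma, where 0.0241%, 0.00689%, and 0.00345% of all genes did, and the lowest value was 0.324. Counting only the unadjusted p under 0.05, 0 of 10 members passed between ICH and sham, where 12.3% of all genes did (4.42% lower). Between feb and ICH 2 of 10 (Rgs5 and Vtn) were lower, against 6.16% of all genes lower and 11.1% in either direction, and between feb and sham 4 of 10 (Rgs5, Vtn, Abcc9, and Cspg4) were lower, against 2.9% lower and 8.54% in either direction. No member was higher at this level in either contrast with feb. Groups did not overlap in 1 of 10 members between ICH and sham (Notch3, lower, against 6.22% of genes lower), in 2 of 10 between feb and ICH (against 10.1% lower), and in 4 of 10 between feb and sham (Rgs5, Pdgfrb, Notch3, and Cspg4, against 4.9% lower). The median log2 fold change of the members was -0.07, -0.26, and -0.32 in the 3 contrasts, and that of all genes tested was 0.08, -0.01, and 0.05. All 10 members had a log2 fold change below 0 in both contrasts with feb, which share the feb mice. With ICH replicate 3 left out, Tagln also passed the unadjusted p between feb and ICH (log2 fold change -0.68).

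The count of 4 members between feb and sham rested on Cspg4 and Abcc9, both close to the threshold. It was 2 when sham replicate 1 or 3, ICH replicate 2 or 3, or feb replicate 1 or 3 was left out, and 5 without feb replicate 2. Rgs5 kept an unadjusted p under 0.05 in all 20 alternative settings in both contrasts with feb, and Vtn in 20 and 19 of 20, whereas Cspg4 did in 8 and Abcc9 in 10. The count between feb and sham was 6 with equal medians, with quantile normalization, and with voom on recovered reads, where Pdgfrb and Notch3 passed as well.

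**Figure D3:**
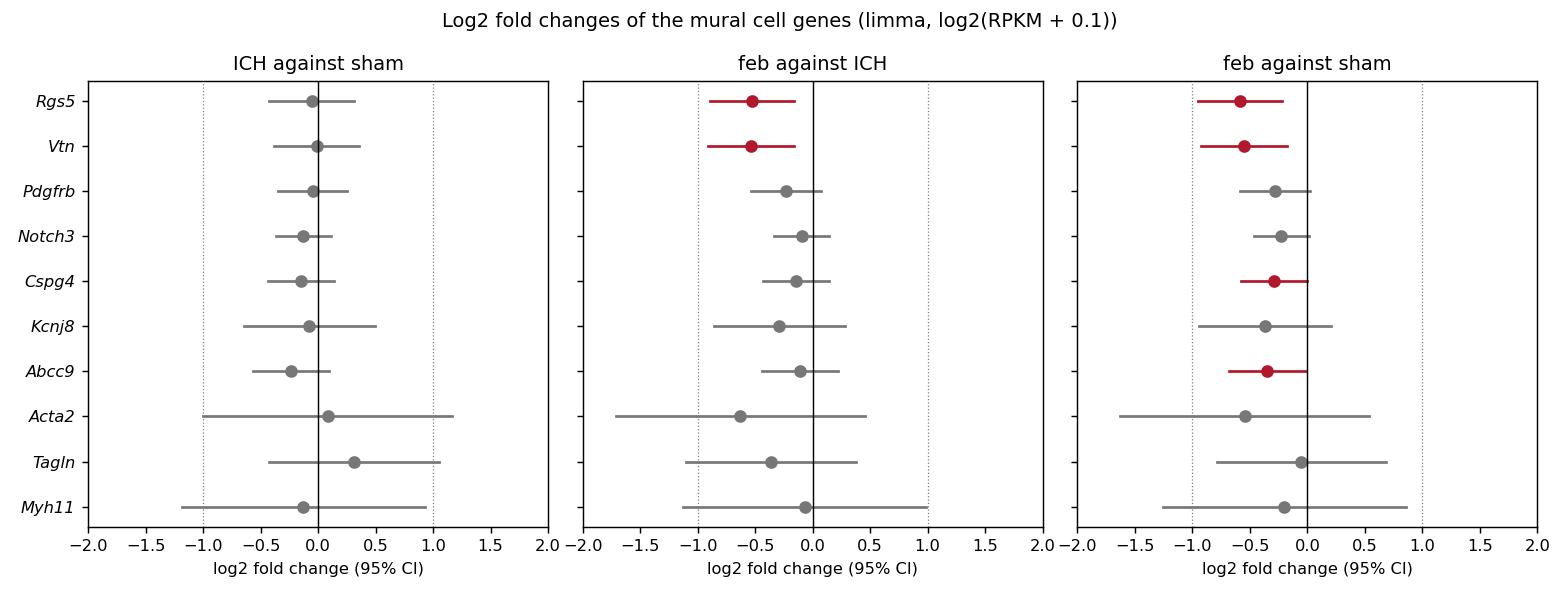
Log2 fold changes of the 10 genes (horizontal axis) in the 3 contrasts, with 95% confidence intervals from limma as lines, red where the unadjusted p was under 0.05, and dotted lines at a 2-fold change. All estimates lie to the left of 0 in both contrasts with feb, and all lie between the dotted lines.

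Other genes of the same cells were examined as 2 lists. Of 16 other pericyte genes, none was called in any contrast, and 1 was higher and 1 lower at an unadjusted p under 0.05 between ICH and sham (Gper1 and Cox4i2), 2 were lower between feb and ICH (Anpep and Cd248), and 4 were lower between feb and sham (Mcam, Anpep, Cox4i2, and Cd248). These 2, 2, and 4 of 16 stand beside 12.3%, 11.1%, and 8.54% of all genes in either direction. The shares between ICH and sham and between feb and ICH were thus near those of all genes. The median log2 fold changes of the list were -0.05, -0.12, and -0.30. In each contrast 4 of the 16 lay above 0 and 12 below 0. The highest value was 0.25 between feb and ICH and 0.33 between feb and sham, so the list did not fall as a whole. Mcam, an adhesion protein of mural and endothelial cells, was 11.7, 8.31, and 10.7 (sham), 7.25, 6.42, and 10.2 (ICH), and 5.05, 7.72, and 3.58 (feb). Its log2 fold change between feb and sham was -0.95 with a standard error of 0.28 (adjusted p = 0.565). Anpep, the aminopeptidase CD13 of pericytes, had a log2 fold change of -0.73 in both contrasts with feb (standard error 0.29), at RPKM values between 0.419 and 1.32. Cox4i2, a subunit of mitochondrial complex IV, was lower than in sham in both groups injected with blood (-0.56 and -0.51, standard error 0.20), with RPKM values of 2.18 to 3.65 in the sham mice and at most 2.11 in the others.

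Of 16 other smooth muscle genes, none passed even the unadjusted p in any contrast and none parted the groups without overlap, with median log2 fold changes of -0.03, -0.16, and -0.10. Over the 9 mice 13 of them correlated positively with Acta2 (Pearson 0.40 to 0.95) and 3 negatively (Synpo2, Pln, and Casq2, -0.36 to -0.16), as a description of these libraries. Tpm2, a tropomyosin of the thin filament, was 13.1, 6.97, and 14.4 (sham), 13.4, 9.71, and 7.44 (ICH), and 5.77, 13.1, and 7.35 (feb). Synpo2 had RPKM values of 4.04 to 20.8 and Casq2 of 1.06 to 2.11.

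**Figure D4:**
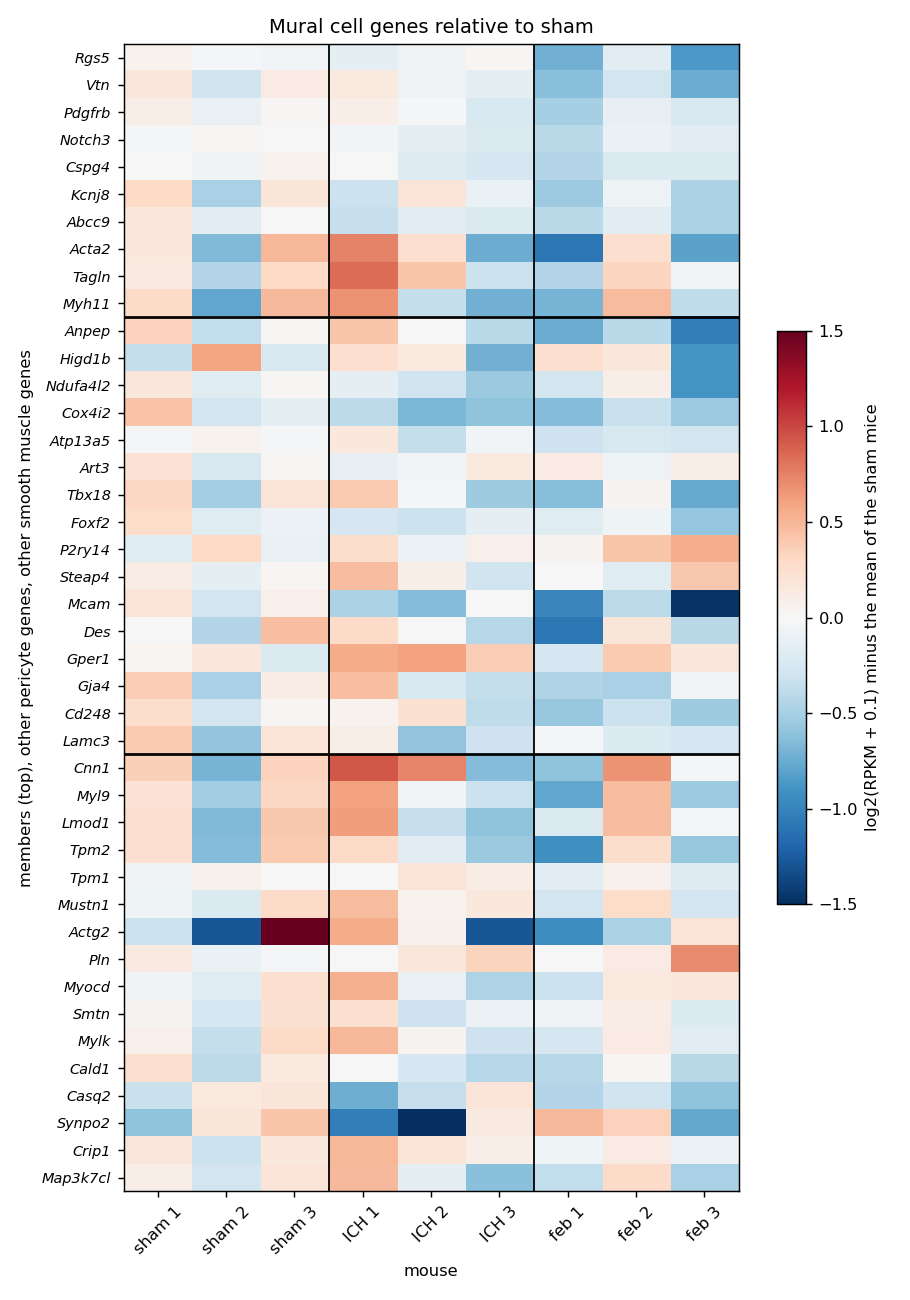
Heat map of the 10 members, 16 other pericyte genes, and 16 other smooth muscle genes (rows) in the 9 mice (columns), as log2(RPKM + 0.1) minus the mean of the sham mice, where differences beyond 1.5 share the darkest color. Rgs5 and Vtn are blue in all feb columns, and Vtn is blue in sham 2 as well. Acta2, Myh11, Cnn1, Myl9, Lmod1, and Tpm2 are blue in sham 2 and ICH 3 but not in feb 2.

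By the rule of likeness, the 5 genes whose log2 values over the 9 mice correlated best with Acta2 among 17651 genes were Myl9 (0.95), Tpm2 (0.95), Des (0.94), H2-K1 (0.93), and Gjb2 (0.93). The 5 nearest to Rgs5 were Tufm (0.98), Tie1 (0.98), Mettl16 (0.96), Tst (0.96), and Gm12696 (0.96). These are Pearson correlations. The Spearman correlations were 0.82 to 0.95 for the 5 genes with Acta2 and lower, 0.53 to 0.88, for the 5 with Rgs5. All 5 genes nearest to Rgs5 were lowest in feb replicates 1 and 3, with Tufm at 14.9 and 13.1 against 18.2 to 21.9 in the other mice. These coefficients are the highest of 17651 and describe these 9 libraries only.

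Partners of the member receptors were examined next. Of 19 genes of PDGF and Notch signaling, none was called. Between ICH and sham, 4 were higher (Pdgfc, Hes1, Pdgfb, and Hey1) and 2 lower (Heyl and Nrip2) at an unadjusted p under 0.05, and between feb and ICH 1 was higher (Heyl) and 3 lower (Hes1, Hey1, and Pdgfa), 6 and 4 of 19 beside the 12.3% and 11.1% of all genes. Between feb and sham 1 of 19 (Pdgfc, higher) passed, beside 8.54% of all genes. Heyl, a Notch target of mural cells, was 1.9996, 1.59, and 2.15 (sham), 1.48, 0.803, and 0.859 (ICH), and 1.62, 1.64, and 1.68 (feb). The ICH mice were below all others, with a log2 fold change of -0.85 against sham (standard error 0.23, adjusted p = 0.334) and of 0.65 for feb against ICH (standard error 0.23, adjusted p = 0.371). Hes1, a Notch target of many brain cells, was 2.56, 2.05, and 2.41 (sham), 3.29, 5.43, and 2.72 (ICH), and 2.76, 2.22, and 2.41 (feb). Pdgfc, another PDGF ligand, had 0.720 to 0.905 in the sham mice, 1.22 to 1.67 in the ICH mice, and 1.07 to 1.22 in the feb mice. The ligand Pdgfb had a log2 fold change of 0.40 between ICH and sham (standard error 0.16).

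Among 9 partners of the potassium channel and of vitronectin, Plau was the only gene called, between feb and ICH, where 2.43% of all genes were. Plau, the urokinase plasminogen activator, had an RPKM of 0.448, 0.441, and 0.501 (sham), 0.453, 1.02, and 0.619 (ICH), and 0.242, 0.271, and 0.185 (feb). The difference between feb and ICH was -1.21 on the log2 scale, with a standard error of 0.28 (adjusted p = 0.253). The integrin subunits that bind vitronectin included Itgav, higher in ICH than in sham by 0.38 (standard error 0.11) and lower in feb than in ICH (-0.49), and Itgb1, lower in feb than in ICH (-0.42) and in sham (-0.26). At an unadjusted p under 0.05, 1 of the 9 was higher between ICH and sham, 3 were lower between feb and ICH, and 2 were lower between feb and sham, beside 12.3%, 11.1%, and 8.54% of all genes in either direction.

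Markers of other vascular and border cells were examined in the same contrasts. Of 14 endothelial markers, 7 were lower and 1 (Slc2a1, the glucose transporter of the barrier) higher between feb and sham at an unadjusted p under 0.05, and 4 were lower and 1 higher between feb and ICH, beside 8.54% and 11.1% of all genes in either direction. None was called, the lowest adjusted p was 0.298, and 4 of the 14 lay above 0 between feb and sham. Kdr, the VEGF receptor, was 3.26, 2.34, and 2.25 (sham), 1.90, 2.28, and 2.19 (ICH), and 1.45, 1.87, and 1.21 (feb), and Tie1 and Tek had log2 fold changes of -0.66 and -0.56 between feb and sham. The summed RPKM of the list was 77.8 to 93.4, 81.5 to 88.3, and 79.1 to 88.5 in the sham, ICH, and feb mice, while the mean log2 value over the list was 2.11 to 2.34, 2.10 to 2.18, and 1.82 to 2.06. Taken relative to the mean log2 value of the endothelial markers in the same mouse, Rgs5 had a log2 fold change of -0.37 between feb and ICH and -0.34 between feb and sham, and Vtn had -0.38 and -0.30, the last with an unadjusted limma p of 0.0515. This reference adds the same amount to every gene, and the median of all genes tested between feb and sham went from 0.05 to 0.30 with it. The differences of Cspg4, Abcc9, Pdgfrb, and Notch3 between feb and sham were then -0.05, -0.10, -0.03, and 0.02. Relative to the median of all genes they were -0.35, -0.40, -0.34, and -0.28. The endothelial reference cannot change these last values, because it moves the median by the same amount.

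Of all genes tested, 2.43% were called between feb and ICH and 2.2% between feb and sham, in either direction. Of 10 fibroblast and meningeal markers, 2 (Col3a1 and Igf2) were called lower between feb and ICH. Between feb and sham 3 (Col1a1, Col3a1, and Igf2) were called lower. The log2 fold changes of these calls were -1.27 to -1.10, and none of the 10 markers was called higher. Their mean log2 value was 0.22 in sham replicate 2 and 0.36 in ICH replicate 3, the mice in which the contractile genes were low, against 1.20 to 1.52 in the other sham and ICH mice, and -0.15 to 0.67 in the feb mice. Their summed RPKM was 13.8 to 39.2 in the sham mice, 15.8 to 38.1 in the ICH mice, and 10.3 to 18.1 in the feb mice. All 8 choroid plexus markers were lower in every feb mouse than in every other mouse, with a summed RPKM of 30.6 to 88.4 in feb, 365 to 1035 in sham, and 458 to 967 in ICH mice. Of all genes, 10.1% were lower without overlap between feb and ICH and 4.9% between feb and sham. All 8 choroid plexus markers were called between feb and ICH, and all but Clic6 between feb and sham. Of 5 red blood cell genes, 4 were called lower between feb and ICH and 3 between feb and sham (Hba-a1, Hba-a2, and Hbb-bt), with Hbb-bs added in the first. The calls against ICH rested on ICH replicate 1. Without that mouse, an alternative chosen after the data were seen, none of the 5 was called, and Hba-a1, Hba-a2, Hbb-bs, and Hbb-bt had log2 fold changes of -0.61, -0.75, -0.80, and -0.89, of which the first 3 kept an unadjusted p under 0.05. Alas2, an enzyme of heme synthesis in red cell precursors, lay above 0, at 0.47 between feb and ICH and 0.72 between feb and sham, and did not pass the test. The summed RPKM of the 5 genes was 32.3 to 40.6 in sham, 26.7 to 124 in ICH, and 17.1 to 21.6 in feb mice. Among the 10 brain markers, only Slc17a7, the glutamate transporter of cortical neurons, was called. It was higher in ICH than in sham (log2 fold change 1.54), where 2.53% of all genes were called. Between feb and ICH 9 of the 10 brain markers lay below 0, as did 15157 of the 29025 genes tested. In 4 of the 10 the groups did not overlap, all lower, beside 10.1% of genes lower. Slc17a7 (-0.82) and Cx3cr1, a microglial receptor (-0.69), were lower at an unadjusted p under 0.05, beside 6.16% of genes lower. Between feb and sham Aqp4, the astrocytic water channel, was lower (-0.84) and Slc17a7 higher (0.72) at that level, beside 8.54% of genes in either direction. No marker of these lists was at 0 in all mice. The part of these cells or of the dissected region in the values of the mural cell genes was not tested.

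**Figure D5:**
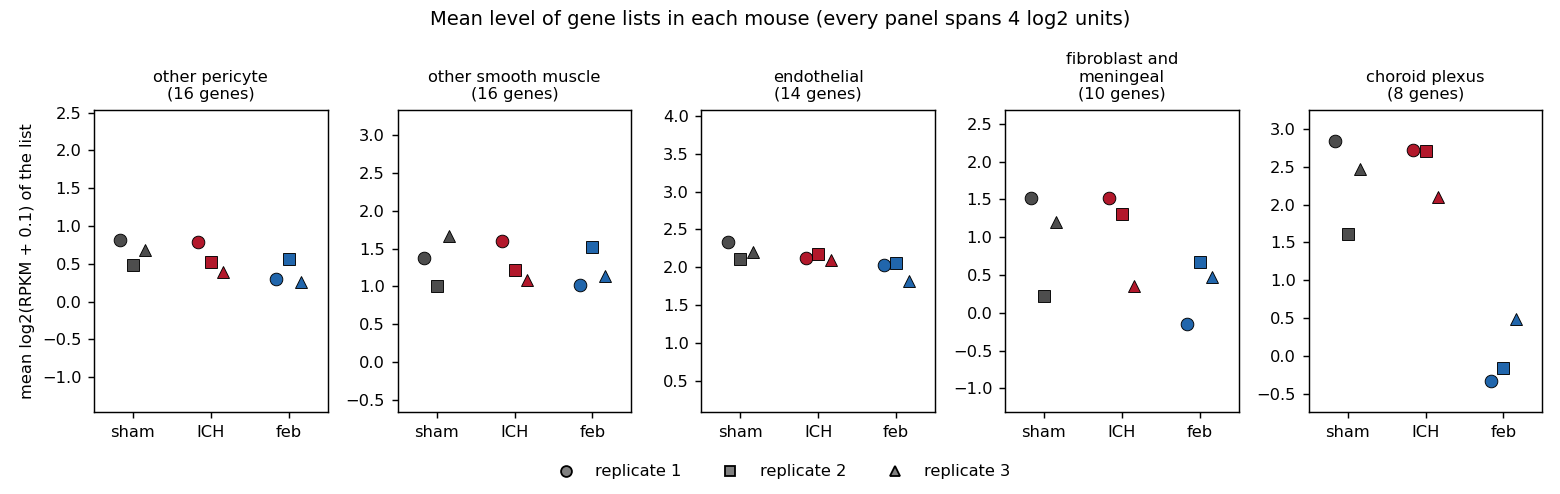
Mean log2(RPKM + 0.1) of 5 gene lists (vertical axes of equal span) in each mouse by group, with symbols for the replicate number. Choroid plexus genes separate all feb mice from the others, the feb mice lie at 2.06 or below and the others at 2.10 or above in the endothelial genes, and fibroblast genes are low in sham replicate 2 and ICH replicate 3.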

How the data were processed

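Brain RNA depleted of ribosomal RNA was measured in 9 mice, and each sample was grouped by its label. The deposited values are RPKM with the exon length and GRCm38 position of each gene. According to the methods and the submitters' processing notes, the authors trimmed reads with Trimmomatic 0.36, built consensus reads by UMI, aligned them to GRCm38, and counted them on exons with featureCounts (Subread 1.5.1). The annotation release and the use of strand are not given in the sources used here. The authors' count test was not repeated. The main test was set for the deposited unit, and voom on recovered reads, an alternative, called 929, 804, and 805 genes in the 3 contrasts, where the main fit called 735, 706, and 639.

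RPKM times exon length gave whole reads in each sample for 100% of values (within 0.02 of a read, below 10000 reads), from which the depths were taken. At these depths 3 reads on 1 kb of exon equal an RPKM of 0.102 to 0.130. Limma 3.58.1 in R 4.3.3 (lmFit, eBayes with trend) was fitted to log2(RPKM + 0.1) of all 9 samples without a block, for genes that reached an RPKM of 0.1 in 3 or more samples. The pseudocount makes fold changes of low genes smaller. The fit was first tested on simulated reads. The members and gene lists were chosen with earlier results of these data known. Named genes were all members, the called genes of each other list or else the 3 with the largest change, and the 5 most alike Rgs5 and Acta2. Genes named only for an unadjusted p under 0.05 (Gper1, Cd248, Pdgfb, Hey1, Nrip2, Pdgfa, Itgav, Itgb1, and Slc2a1), the genes overlapping a member, Pln, Alas2, Aqp4, Cx3cr1, and those singled out in the heat map caption were chosen after their values were seen. Pdgfra was also named after its values were seen. The methods describe random assignment of mice to groups. Each library was taken as 1 mouse, which the labels do not state. The paper gives 3 mice per group for its expression analysis. The p-values measure the spread between these libraries. The alternatives tried changed the pseudocount (1 or 0.01), the filter (none, or RPKM 1), the scaling (equal medians, quantiles, or relative to endothelial markers), and the fit (only the 2 groups compared, no trend, a replicate block, voom on recovered reads, or 1 mouse left out). Python 3.11.15 (scipy 1.17.1, matplotlib 3.10.9) served for tables, permutation tests, and figures.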

Additional observations from a re-analysis of the deposited data

How the results depend on the processing

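No member was called in any of the 3 contrasts under any alternative run. The number of members with an unadjusted p under 0.05 between feb and sham, 4 in the fit reported, was 2 with only the 2 groups compared, 2 with the replicate block, 1 relative to the endothelial markers, and 6 with equal medians, quantile normalization, or voom on recovered reads, and it ran from 2 to 5 with 1 mouse left out. Between ICH and sham it was 1 with equal medians and 0 with any mouse left out, and between feb and ICH it ran from 2 to 3. The number of members whose groups did not overlap was 3 between ICH and sham with equal medians and with quantile normalization, 1 between feb and ICH with quantile normalization and relative to the endothelial markers, and 0 between feb and sham relative to the endothelial markers. With 1 mouse left out it ran from 1 to 3, 2 to 6, and 4 to 7 in the 3 contrasts, where fewer mice make overlap less likely. The cause of the other changes was not tested.

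Directions turned in no contrast in which the member had passed the unadjusted p. Scaling to the endothelial markers moves all genes of a mouse by the same amount. It moved the median of all genes from 0.08 to 0.17, -0.01 to 0.15, and 0.05 to 0.30 in the 3 contrasts. Under it, a log2 fold change above 0 means only that the member lay above the mean change of the endothelial markers. Relative to the endothelial markers the log2 fold changes were 0.0375 (Pdgfrb), 0.0293 (Rgs5), 0.0106 (Kcnj8), and 0.0721 (Vtn) between ICH and sham, 0.0921 (Myh11), 0.0183 (Cspg4), 0.049999 (Abcc9), and 0.0649 (Notch3) between feb and ICH, and 0.20 (Tagln), 0.0475 (Myh11), and 0.0210 (Notch3) between feb and sham. With equal medians, which moved the median of all genes from 0.08 to -0.03, Acta2 had -0.0238 between ICH and sham. With 1 mouse left out, the ranges between ICH and sham were -0.12 to 0.0427 for Pdgfrb, -0.25 to 0.50 for Acta2, -0.54 to 0.16 for Myh11, -0.32 to 0.0739 for Kcnj8, and -0.16 to 0.0733 for Vtn. They were -0.41 to 0.34 for Myh11 between feb and ICH, and -0.27 to 0.14 for Tagln and -0.59 to 0.0484 for Myh11 between feb and sham. Without a turn, Kcnj8 ran from -0.61 to -0.22 between feb and sham and Pdgfrb from -0.32 to -0.13 between feb and ICH.

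Samples with the same replicate number did not deviate together, with correlations of -0.127 to 0.0194 over 9 pairs and 0 above 0.1, so the numbers were not taken to pair the mice. Kcnj8, with 57 to 130 reads per mouse, had the least depth of the members.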
